A study of Mus musculus with 51 samples.

Results

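Trimethylation of histone H3 at lysine 27 (H3K27me3) was compared between the C57BL/6 (B6) and the CAST allele in extra-embryonic ectoderm (ExE) of F1 hybrid mouse embryos. The regions examined were the H3K27me3 peaks on autosomes in the allelic ExE table, 22515 of the 23683 peaks of that table and of 150793 peaks in the 6 allelic tables of the series. Wild-type embryos at embryonic day 6.5 came from reciprocal crosses of C57BL6/Babr and CAST/Ei animals, written with the mother first. In B6/CAST the B6 allele is maternal, and in CAST/B6 it is paternal, so that an effect of the strain keeps its direction between the crosses while its parent changes. Each cross was represented by 2 H3K27me3 libraries (4 of the 51 samples of the series), each from ExE pooled from several embryos. Aliquots of a pool were used for H3K27me3, H3K4me3 and H3K36me3 and as input. For comparison, 2 libraries of matDKO/CAST ExE were read. These embryos had a CAST father and a mother of mixed B6/129 background whose oocytes had lost Dnmt3a and Dnmt3b through Zp3-driven Cre, so that the embryos carry a deleted maternal copy of both genes.

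H3K27me3 is laid down by Polycomb repressive complex 2 and is found over silent or lowly transcribed genes, often as broad domains around developmental regulators with CpG-rich start sites. H3K4me3 marks active or poised start sites, and H3K36me3 is deposited along the bodies of transcribed genes. The ExE is the trophoblast-derived tissue that lies next to the epiblast and contributes to the placenta. In an F1 hybrid both alleles share a nucleus, so that they are compared in the same cells.

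A peak was informative when at least 20 reads had been assigned to an allele in at least 1 of the 8 allele columns, and 18592 peaks were. It was called strain-specific when the alleles differed in both crosses (edgeR quasi-likelihood F test in each cross, Benjamini-Hochberg adjusted p below 0.05 over informative peaks) with the same strain higher. In all, 804 peaks (4.32%) were strain-specific, 384 with more H3K27me3 on the B6 allele (2.07%) and 420 with more on the CAST allele (2.26%). The count depended on the test and the libraries, with 93 by DESeq2 and 217 without B6/CAST replicate 1, 335 without B6/CAST replicate 2 and 379 without CAST/B6 replicate 1. Of 154 that overlapped tested peaks of both H3K4me3 and H3K36me3, both marks differed at 10 (2.49% of all informative peaks with such overlaps did), and at 8 of the 10 the other strain was higher for both. Of these 8, the start site of a protein-coding gene lay in the strain-specific peak at Dpep1, Cd276, Pkd2 and Uggt2. Their promoters are shown because the strain-specific peak holds them and the other 2 marks differed at peaks that overlap it, as B6 reference sequence from RefSeq (GRCm38.p6), 5′ to 3′ on the strand of the gene, from 250 bases before to 50 after the annotated start, with CpG dinucleotides in capitals. The windows are chr8:123185985-123186284 (plus strand) for Dpep1, chr9:58554984-58555283 (minus strand) for Cd276, chr5:104459207-104459506 (plus strand) for Pkd2 and chr14:119099385-119099684 (minus strand) for Uggt2. The bases that differ in CAST were not used here.
Dpep1: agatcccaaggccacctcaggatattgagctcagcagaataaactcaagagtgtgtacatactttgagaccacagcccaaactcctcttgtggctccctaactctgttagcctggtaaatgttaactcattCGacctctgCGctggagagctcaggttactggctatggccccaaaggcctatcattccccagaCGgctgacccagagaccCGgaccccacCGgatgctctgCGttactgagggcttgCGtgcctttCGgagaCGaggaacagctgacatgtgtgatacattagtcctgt
Cd276: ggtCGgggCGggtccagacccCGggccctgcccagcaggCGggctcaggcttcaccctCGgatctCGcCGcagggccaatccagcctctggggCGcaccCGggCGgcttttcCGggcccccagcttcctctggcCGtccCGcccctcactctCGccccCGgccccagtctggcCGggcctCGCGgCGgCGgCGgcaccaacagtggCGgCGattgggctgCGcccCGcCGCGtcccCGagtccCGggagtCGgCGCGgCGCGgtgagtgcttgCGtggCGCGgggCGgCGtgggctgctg
Pkd2: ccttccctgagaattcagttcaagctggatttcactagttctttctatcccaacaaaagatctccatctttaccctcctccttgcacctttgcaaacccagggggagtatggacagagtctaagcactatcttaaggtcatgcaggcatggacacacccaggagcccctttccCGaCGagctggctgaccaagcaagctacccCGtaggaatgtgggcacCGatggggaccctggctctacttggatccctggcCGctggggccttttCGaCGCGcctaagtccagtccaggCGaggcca
Uggt2: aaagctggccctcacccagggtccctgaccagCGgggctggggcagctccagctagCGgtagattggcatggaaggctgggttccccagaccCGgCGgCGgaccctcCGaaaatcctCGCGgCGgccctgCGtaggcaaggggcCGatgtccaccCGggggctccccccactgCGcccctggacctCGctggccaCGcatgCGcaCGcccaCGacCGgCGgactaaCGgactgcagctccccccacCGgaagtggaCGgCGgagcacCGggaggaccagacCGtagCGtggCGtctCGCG
The promoters of Cd276 and Uggt2 held 39 and 30 CpGs in 300 bases, and those of Dpep1 and Pkd2 held 9 each. Over 32851 RefSeq promoter windows of the same length the median was 7, and 94.6% held at least 1 CpG, which reads the same on both strands. The windows of Cd276, Pkd2 and Uggt2 lay in the H3K4me3 peak that was read for the gene, and that of Dpep1 did not. The H3K36me3 peak that was read held the window of Pkd2 and did not reach those of Dpep1, Cd276 and Uggt2.

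Reads assigned to an allele within autosomal peaks numbered 3.38 to 6.58 M per wild-type library, and 50.1 to 50.9% of them fell on the B6 allele. The tissue label was checked on H3K4me3 at marker start sites in 4 libraries per tissue. Cdx2, a trophoblast factor, had 22.0 to 35.6 RPKM in ExE and 7.47 to 16.3 in epiblast, and the epiblast factor Pou5f1 had 3.79 to 10.6 and 39.0 to 55.4. Of the other ExE markers, Tfap2c was higher in ExE (mean 21.8 against 11.6 RPKM), Elf5 was low in both (0.167 to 0.574 and 0.0909 to 0.448), Eomes overlapped between the tissues (33.8 to 45.1 and 34.9 to 47.4) and Esrrb was low and lower in ExE (0.161 to 0.393 and 0.481 to 0.841). All 5 visceral endoderm markers (Afp, Ttr, Apoa1, Amn and Hnf4a) had higher means in ExE, from 1.25 against 1.20 RPKM at Afp to 7.20 against 2.67 at Ttr and 14.1 against 7.56 at Amn. Whether visceral endoderm took part in the allelic results was not tested.

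**Figure D1:**
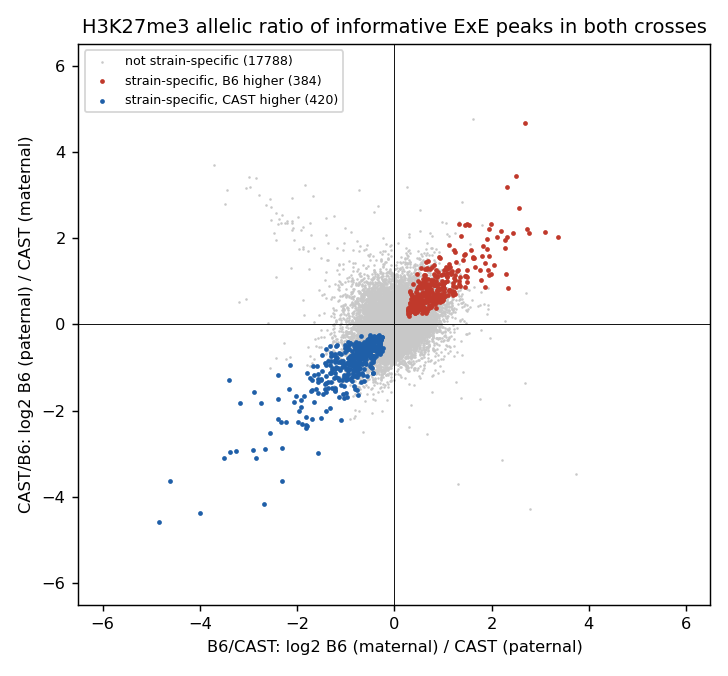
Allelic log2 ratio (B6 over CAST) of 18592 informative ExE H3K27me3 peaks in B6/CAST (x axis) and CAST/B6 (y axis), 1 point a peak. Strain-specific peaks lie in the upper right (384, B6 higher) and lower left (420, CAST higher) quadrants, and 1 peak beyond 6.5 is not drawn.

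Most of the strain-specific differences were moderate. In a joint fit with terms for cross, parent and strain, the median log2 ratio of B6 to CAST was 0.74 at the peaks higher on B6 and -0.75 at those higher on CAST, with median standard errors of 0.13 and 0.12. The higher allele carried a median of 63.5% of the reads at B6-high peaks and 61.8% at CAST-high peaks. It carried over 75% at 38 and 42 peaks, and over 90% at 2 and 6. All 4 libraries had more reads on the higher allele at 384 of 384 and at 418 of 420 peaks. The calls were made on these same libraries, so this agreement follows in part from the call. The strain term of the joint fit, which does not ask for a separate call in each cross, passed at 4325 peaks (23.3%), 2130 with B6 and 2195 with CAST higher. By DESeq2 it passed at 1338, and with edgeR at 2300 without B6/CAST replicate 1, 2510 without CAST/B6 replicate 1 and 2825 without B6/CAST replicate 2. Peaks at the margin of the call were Pip4p2 (larger adjusted p of the 2 crosses 0.0497) and Fam181b (0.0499) just inside, and the Alox12 region (0.0501) and Me3 (0.0503) just outside.

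The strain-specific peaks with the most reads were broad domains, with log2 ratios between 0.24 and 0.65 in size. On the B6 side the deepest, with 9592 allelic reads, held the start sites of Abcc3, a transporter of organic anions, and Cacna1g, a T-type calcium channel (chr11:94345500-94527000, coordinates as deposited on GRCm38). Its B6 share was 57.6 and 56.3% in B6/CAST and 55.2 and 56.7% in CAST/B6, a log2 ratio of 0.32 ± 0.05 (SE; adjusted p 0.0011 and 2.9e-04 in the 2 crosses). The domains of Ccdc177 and Plekhd1 (log2 ratio 0.38 ± 0.06), of Ctif and Zbtb7c (0.25 ± 0.05), of the phospholipid flippase gene Atp8b1 (0.24 ± 0.06) and of the homeobox gene Hlx (0.31 ± 0.06) followed. On the CAST side the domain of Bnc1, which encodes the zinc finger protein basonuclin 1, had 12557 reads (chr7:81833000-82129000). Its B6 share was 46.7, 44.5, 43.4 and 46.1% (log2 ratio -0.34 ± 0.05, adjusted p 6.2e-04 and 1.6e-04), so that it lay below 50% in each of the 4 libraries. The next were the domains of Azin2, Trim62 and Zfp362 (-0.65 ± 0.05), of Aldh1b1 and Igfbpl1 (-0.45 ± 0.05), of Art2b and Pde2a (-0.32 ± 0.05) and of Zpbp2 and the lymphoid factor gene Ikzf3 (-0.41 ± 0.05). Among the 4 libraries the share of Azin2 ranged from 33.9 to 45.9%.

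Many of the largest ratios were found at short peaks with few reads. Among peaks with at least 100 reads, the largest ratio toward B6 was at the start site of Eif3j2, a gene for a subunit of a translation initiation factor, with 26 B6 and 3 CAST reads in B6/CAST replicate 1, 12 and 1 in replicate 2, 33 and 9 in CAST/B6 replicate 1, and 17 and 2 in replicate 2. The log2 ratio was 2.61 ± 0.37 (adjusted p 9.3e-05 and 7.3e-05). Srl, which encodes the calcium-binding protein sarcalumenin, had its difference in an exonic peak (chr16:4494500-4503000) with B6 shares of 87.9, 87.3, 84.7 and 79.6% and a log2 ratio of 2.46 ± 0.23. Next came the start site of Gm25911 (2.44 ± 0.27), a peak near Cyfip1 (2.27 ± 0.31) and an intergenic peak at chr17:80011000-80018500 (2.17 ± 0.22). Further protein-coding start sites with a large ratio toward B6 were those of the MHC class I genes H2-Q6 and H2-Q7 in 1 peak (2.02 ± 0.32), of Mcmdc2, a gene required in meiosis (1.94 ± 0.23), of the catenin gene Ctnna3 (1.89 ± 0.27) and of Asap2 (1.86 ± 0.25).

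On the CAST side, an intergenic peak near Riok3 led among peaks with at least 100 reads. Its B6 shares were 3.6, 3.8, 6.9 and 8.1%, with a log2 ratio of -4.14 ± 0.35 (adjusted p 1.8e-08 and 1.3e-13). The intronic peak of the lectin gene Clec2g had a ratio of -3.42 ± 0.38. At the start site of Dcaf7, which encodes a WD40 adaptor protein, 1 B6 and 13 CAST reads were counted in B6/CAST replicate 1, 1 and 11 in replicate 2, 4 and 35 in CAST/B6 replicate 1, and 4 and 34 in replicate 2 (-3.32 ± 0.43). The CAST allele held nearly all the reads at Dcaf7 in each library, though few reads were counted. Trpm8, the gene of a cold-activated ion channel, had an intronic peak with a ratio of -3.11 ± 0.15 and a peak at its start site with -2.61 ± 0.12. A peak near Cops8, which encodes a COP9 signalosome subunit, had -2.99 ± 0.28, and further protein-coding start sites were those of Gtsf2 (-2.31 ± 0.34), Fbxo33 (-2.13 ± 0.26) and Uggt2 (-1.99 ± 0.15). At Uggt2, which encodes a sensor of glycoprotein folding, the B6 share was 22.5, 19.8, 18.3 and 23.2%.

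**Figure D2:**
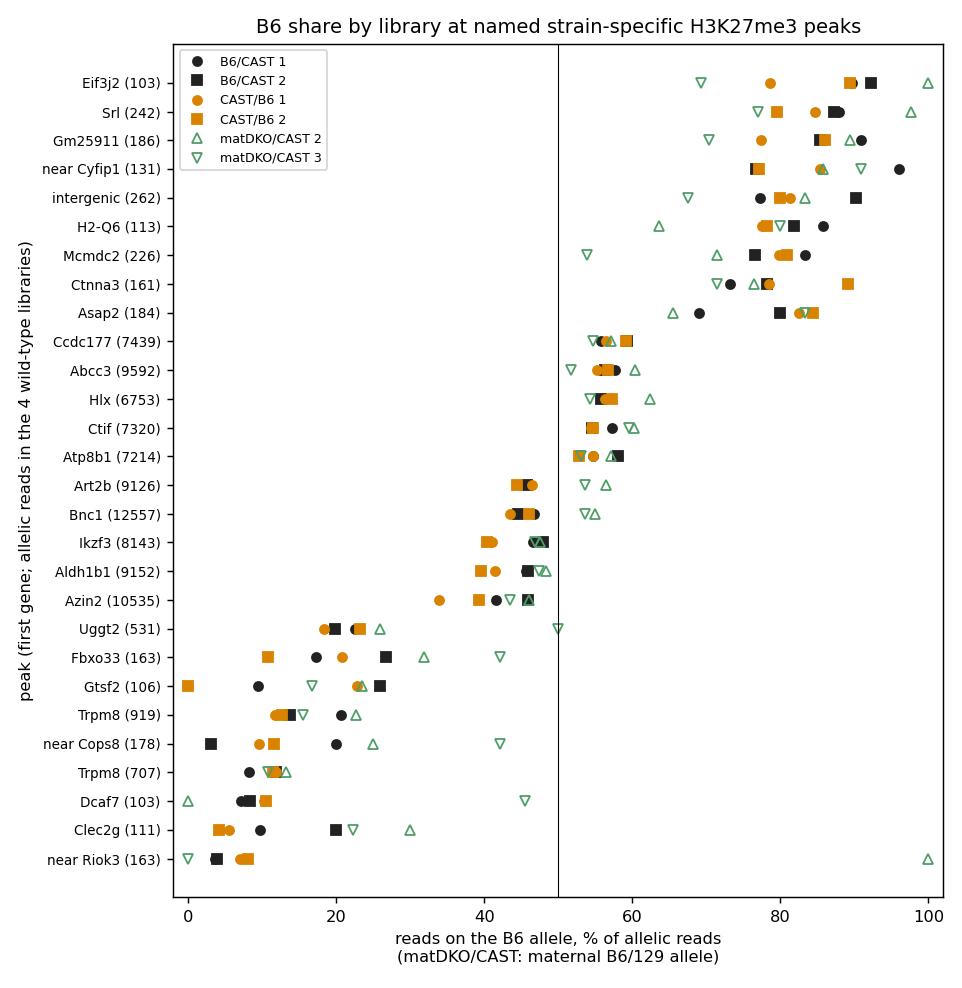
Share of allelic reads on the B6 allele (x axis, percent) in each library at 28 strain-specific peaks (rows; first gene, with the allelic reads of the 4 wild-type libraries in parentheses). Filled symbols are the wild-type libraries, on which the calls were made and which lie on 1 side of 50% at each peak. Open triangles are the matDKO/CAST libraries, in which the maternal B6/129 share is drawn.

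The share of peaks called rose with read number, from 2.12% in the quartile with 47 to 193 reads to 6.50% in the quartile with 930 to 41688 reads. The median size of the called log2 ratio went the other way, from 1.70 to 0.49. By chromosome, 2.81% (chromosome 6) to 5.97% (chromosome 14) of informative peaks were strain-specific. Strain-specific peaks were longer than the remaining peaks that were neither strain-specific nor parental (median 19250 against 13500 bp), had more reads (668 against 369) and more often held a start site (56.2 against 42.4%). Soft-masked repeats covered a median of 27.7% of their length against 23.9%. Median CpG content was 10.9 against 10.2 CpGs per kb, and median total H3K27me3 was 0.892 against 0.772 RPKM. These differences were not tested.

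Gene lists were read at the peak of each gene, against 4.32% of all informative peaks. List genes were read near start sites, and of 5593 informative peaks that held a protein-coding start site, 325 were strain-specific. Of 162 olfactory and vomeronasal receptor genes with an informative peak, 19 (11.7%) were strain-specific, 13 with B6 and 6 with CAST higher, but these lay on 11 of 105 distinct peaks. The domain with the most reads held Olfr1377, Olfr1378 and Olfr51 together with the zinc finger gene Zfp354b (log2 ratio 0.33 ± 0.06). Of 43 MHC, natural killer receptor and other strain-variable immune and surface genes, 4 (9.30%) were strain-specific on 3 of 33 distinct peaks, all with B6 higher, namely H2-Q6, H2-Q7, Klrg2 (0.30 ± 0.06) and Psg16 (0.74 ± 0.15). Of 136 Zfp genes, 12 (8.82%) were, on 10 of 126 distinct peaks, 4 with B6 and 8 with CAST higher, among them Zfp612 (-0.29 ± 0.05) and Zfp362 in the Azin2 domain. By DESeq2 the strain-specific genes numbered 4 in the olfactory and vomeronasal list, 0 in the immune and surface list and 1 in the Zfp list. Of 194 solute carriers, 9 (4.64%) were strain-specific, on 8 of 183 distinct peaks, and 1 by DESeq2, such as Slc26a9 and Slc41a1 in 1 peak (0.48 ± 0.06) and the glycine transporter gene Slc6a5 (-0.31 ± 0.06).

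Of 71 neural and organ homeobox genes, 1 (1.41%) was strain-specific, against 4.32% of all informative peaks. It was the retinal factor gene Vsx1, whose B6 share was 37.7, 40.4, 36.5 and 35.3% (log2 ratio -0.79 ± 0.08). Of 58 Wnt, Fgf, Bmp and Hedgehog ligands, 2 (3.45%) were, Gdf6 toward B6 (0.30 ± 0.06) and Wnt5b toward CAST (-0.40 ± 0.06). Of 65 collagen and matrix genes, 2 (3.08%) were, Adamtsl3 (-0.40 ± 0.07) and Lamc1 (-0.90 ± 0.18). Of 17 epiblast genes, 2 (11.8%) were, both toward CAST. These were Dnmt3l, a cofactor of de novo DNA methylation (-0.62 ± 0.09), in 1 peak with Aire, and the zinc finger gene Sall2 (-0.61 ± 0.08). Among 15 germline genes, 1 (6.67%) was strain-specific, the piRNA pathway gene Mael, which was higher on B6 (0.37 ± 0.06). DESeq2 called 1 gene in the homeobox list and 0 in the other lists of this paragraph.

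No gene was called strain-specific by edgeR among 39 Hox genes, 33 forkhead genes, 56 clustered protocadherins, 25 gastrulation regulators, 14 ExE and trophoblast factors, 14 Polycomb subunits and 9 visceral endoderm genes. Of all informative peaks 4.32% were called, and with so few peaks per list 0 calls cannot be told apart from that share. The Hox genes lay on 4 peaks and the protocadherins on 9, so that these genes are not separate observations. With an unadjusted p below 0.05 in both crosses and the same strain higher, which held for 9.34% of all informative peaks, the counts were 0 Hox, 4 forkhead, 0 protocadherin, 2 gastrulation, 3 trophoblast, 1 Polycomb and 1 visceral endoderm genes, and DESeq2 called 0 in each list. The strain term of the joint fit, which passed at 23.3% of all informative peaks, passed at 9 forkhead genes, 11 protocadherins, 4 gastrulation regulators, 3 trophoblast factors, 6 Polycomb subunits, 1 visceral endoderm gene and 0 Hox genes. The median log2 ratio over a list lay between -0.09 and 0.08 for each of the 17 lists. The 31 known imprinted genes with an informative peak lay on 22 distinct peaks. Of these genes, 22 followed the parent in both crosses by edgeR (1.35% of all informative peaks did) and 0 the strain (1 at an unadjusted p, 0 by DESeq2). A peak called parental cannot be called strain-specific.

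Strain-specific peaks close to each other mostly favoured the same strain. Of 58 pairs of consecutive strain-specific peaks within 20 kb, 56 (96.6%) had the same allele higher, of 109 within 100 kb 94 (86.2%), and of 244 within 500 kb 168 (68.9%). Each wider distance includes the pairs of the shorter ones. The share among neighbouring informative peaks in general was not computed, and close peaks may be parts of 1 domain. At 10 places, 3 or more consecutive strain-specific peaks favoured 1 strain with no gap over 100 kb, a definition chosen after the values had been seen. The longest (332 kb, 5 of 6 informative peaks) covered Dzip1, Uggt2 and Hs6st3, with summed B6 shares of 37.1, 37.5, 36.8 and 35.3%. A run of 5 peaks at Pag1 spanned 156 kb, with shares of 42.0, 36.5, 38.9 and 39.7%. A run of 3 peaks over the chemokine genes Ccl5, Ccl6, Ccl9, Ccl3 and Ccl4 spanned 238.5 kb and favoured B6 in each library (57.4, 58.7, 55.8 and 58.4%).

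The input was read at each peak, since sequence that is missing from a strain or present there in more copies alters the allelic counts as well. Input was expressed relative to its autosomal median and was not split by allele. Of 13 informative peaks with an input above 2 times the median, 11 were strain-specific, all with CAST higher. They included the run of 5 peaks over Ugt1a1, Mroh2a and Trpm8, where the input was 5.08 to 5.45 times the median. At the start site of Trpm8 it was 2.40 and 2.37 RPKM in B6/CAST and 2.54 and 2.53 RPKM in CAST/B6, against a median of 0.484. The others were Gm42642, Gzma, 2700054A10Rik, AC141882.1, Rsph1 and Slc37a1, with log2 ratios from -1.37 to -2.36. Below 0.7 times the median lay 163 informative peaks, of which 12 were strain-specific with B6 and 1 with CAST higher. At Gm12818, named after its values were seen, all 82 reads of the 4 libraries fell on B6 and 0 on CAST, at least a 27.3-fold difference against a floor of 3 counts over the libraries, with an input of 0.315 times the median. Asap2 (0.537) was the one peak of this kind among the largest ratios listed above. Most calls, 372 with B6 and 401 with CAST higher, lay at peaks with an input of 0.7 to 1.5 times the median, where 4.20% of informative peaks were strain-specific. Between 1.5 and 2 times the median, 7 of 23 peaks (30.4%) were strain-specific, all with CAST higher. What the input contributed to the allelic ratios was not tested at any peak.

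**Figure D3:**
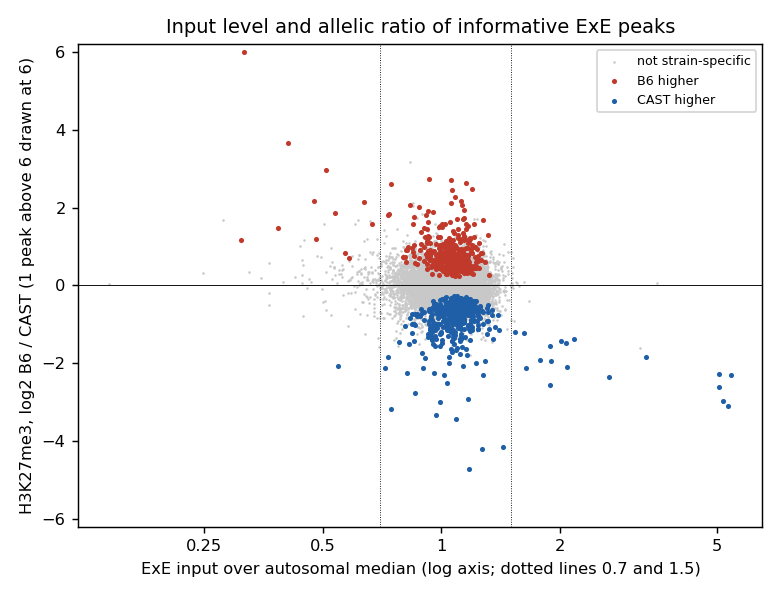
ExE input at each informative peak over the autosomal median (x axis, log scale) and the H3K27me3 log2 ratio of B6 to CAST (y axis). Peaks higher on CAST (blue) make up 11 of the 13 peaks with an input above 2, and peaks higher on B6 (red) make up 12 of the 13 strain-specific peaks below 0.7.

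The matDKO/CAST libraries, which the calls did not use and which came from other embryos, had the same allele higher at 753 of 801 strain-specific peaks with reads (94.0%), by the sign of the ratio after normalisation for the maternal excess of reads. For the peaks called neither strain-specific nor parental, the same sign was found at 63.4%. Tested in these 2 libraries alone, 133 strain-specific peaks passed, against 2.1% of all informative peaks. The direction was the same at 132 of the 133 (57 with B6/129 and 75 with CAST higher, against 1.29% and 0.818% of all informative peaks), and the exception was Fkbp9 (log2 ratio -0.43 in wild type and 0.64 in matDKO/CAST). With each library as a block, 242 passed in the same direction in place of 132. Without matDKO/CAST replicate 2, 28 passed. The mother was always B6/129 here, so that strain and parent cannot be told apart in these libraries, and the maternal share of all reads was 53.1 and 55.8%. At Srl the maternal share was 97.6 and 76.9% (2.52, adjusted p 7.0e-05), and at the intronic Trpm8 peak 13.2 and 10.8% (-3.08, adjusted p 1.9e-13). At Uggt2 the libraries differed from each other, with 25.9 and 50%. Of the 10 domains listed above, which had the most reads among the strain-specific peaks of each direction, only that of Azin2 passed in matDKO/CAST (-0.58, adjusted p 0.0038). Bnc1 had maternal shares of 55.0 and 53.6% and a normalised log2 ratio of -0.03, and Abcc3 had 60.4 and 51.8% and a ratio of 0.09.

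The epiblast, dissected from embryos of the same crosses that may include those of the ExE pools, showed the strain differences in the same direction at most of the peaks that could be read there. Of the 804 peaks, 414 overlapped an informative epiblast H3K27me3 peak, and 365 of these (88.2%) had the same strain higher by the sign of the normalised ratio. For peaks called neither strain-specific nor parental, the share was 64.8%. The epiblast difference passed at 129 of the 414 (31.2%), against 6.97% of all informative ExE peaks that overlapped one, 5.31% of those called neither and 7.19% of all epiblast peaks tested, with the same strain higher at 128. The epiblast log2 ratio was 3.11 at Eif3j2 (adjusted p 2.4e-05), -3.65 near Riok3 (8.0e-09), -2.65 at Uggt2 (5.4e-06) and -0.52 at Bnc1 (0.0053). Vsx1 did not pass in epiblast (-0.32, adjusted p 0.22), nor did Dnmt3l (0.00, adjusted p 1.0). Whether the strain effect differed between the tissues at these genes was not tested.

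**Figure D4:**
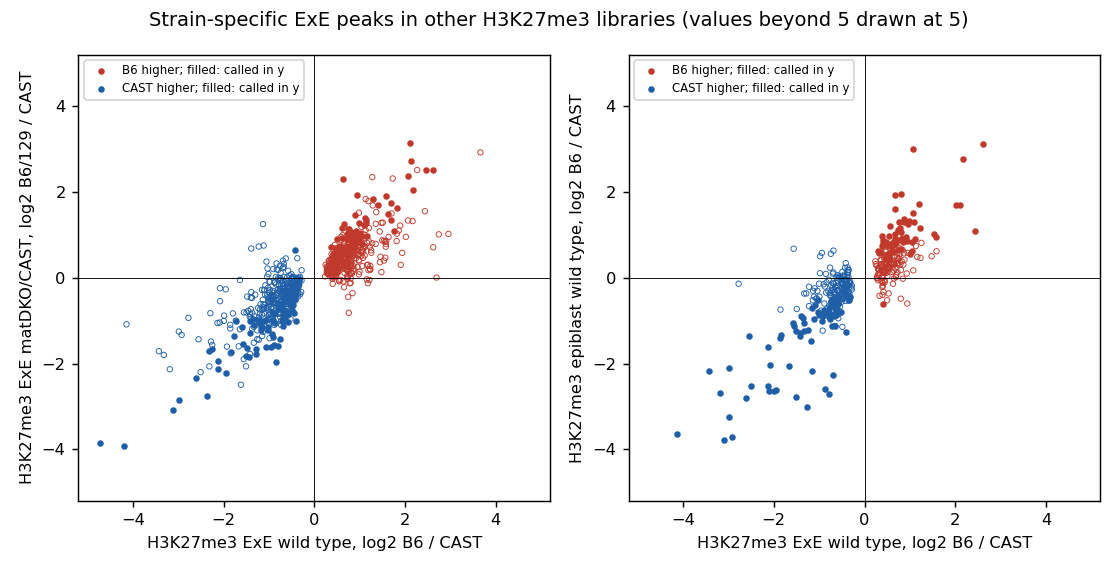
Log2 ratio of B6 to CAST at strain-specific ExE peaks in wild-type ExE (x axes) against matDKO/CAST ExE (left, y axis) and wild-type epiblast (right, y axis), with red for B6-high and blue for CAST-high peaks and filled points for those that passed in the libraries of the y axis. Most points lie in the quadrants of equal sign, 753 of 801 on the left and 365 of 414 on the right.

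H3K36me3 in ExE tended to lie on the other strain's allele. Of the 804 peaks, 185 overlapped an informative H3K36me3 peak, and the strain with less H3K27me3 had more H3K36me3 at 131 (70.8%), against 53.0% for peaks called neither. The H3K36me3 difference passed at 33 of the 185 (17.8%), against 7.53% of all informative ExE peaks with such an overlap. At 29 of the 33 the other strain was higher, and at 4 the same strain. For peaks called neither, the split was 86 and 48. The 33 were read at 31 distinct H3K36me3 peaks, as both Cd276 peaks and both Uggt2 peaks shared 1 each. With a required overlap of 50% of the shorter peak, 16 passed, 14 with the other and 2 with the same strain higher. At Uggt2, H3K36me3 had a B6 share of 66.5, 66.1, 64.9 and 65.2% (log2 ratio 0.87 ± 0.06, adjusted p 7.7e-35), where H3K27me3 was higher on CAST. Cdh3, the gene of placental cadherin, had -0.90 for H3K27me3 and 0.72 for H3K36me3, and the polycystin gene Pkd2 had -1.34 and 0.67. Toward B6 for H3K27me3 and toward CAST for H3K36me3 were Cd276, an immune checkpoint ligand (0.53 and -0.95 at its start-site peak), the membrane dipeptidase gene Dpep1 (0.76 and -1.29) and Srl (2.46 and -0.69). The histone methyltransferase gene Setd7 had 0.50 and -0.34. The exceptions with the same strain higher for both marks were Rsph1, where the input was 2.18 times the median, Ccdc114 with Emp3, Odf4 and 4930402C01Rik. Genes in this paragraph were named because the H3K36me3 difference passed.

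H3K4me3 in ExE was more evenly divided. Of 481 strain-specific peaks that overlapped an informative H3K4me3 peak, 143 (29.7%) had an H3K4me3 difference that passed, against 18.5% of all informative ExE peaks with such an overlap. The other strain was higher at 90 and the same strain at 53. For peaks called neither, the split was 647 and 539. With the input limited to 0.7 to 1.5 times the median, the split was 90 and 48. At strain-specific peaks that held a start site it was 68 and 32. At Dpep1 the B6 share of H3K4me3 was 11.4, 8.9, 38.7 and 19.2% (log2 ratio -2.21 ± 0.28), and at Srl it was 8.2, 4.4, 4.9 and 7.1% (-3.93 ± 0.18). Both peaks thus had H3K4me3 mainly on CAST and H3K27me3 mainly on B6 in each library. The H3K4me3 peak read at Dpep1 did not hold the promoter window shown for that gene. Uggt2 showed the reverse, with H3K4me3 shares of 66.9, 61.1, 63.7 and 73.2% on B6 (0.93 ± 0.11). Large differences away from the H3K27me3 allele were also seen at Fam83a (-3.04 ± 0.20), at Olfr159 (-3.21 ± 0.50) and near Cops8 (3.60 ± 0.49). Large differences toward the same strain were seen at Bod1-ps (1.19 for H3K27me3 and 4.19 for H3K4me3), 1700017D01Rik (0.87 and 3.22) and an intronic peak of Gm26561 (-2.92 and -3.41), and at peaks with an input over 2 times the median such as the intronic Trpm8 peak (-3.11 and -2.99). These genes were named after their values were seen. Of the 10 strain-specific peaks at which both H3K4me3 and H3K36me3 passed, 8 had the other strain higher for both, 1 the same strain for both, and 1 differed between the marks. For peaks called neither, both marks passed at 35 of 1693, with 17 on the other strain for both, 8 on the same strain and 10 that differed between the marks. The H3K4me3 and H3K36me3 libraries came from aliquots of the same chromatin pools, so these are further marks of the same embryos rather than further embryos.

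**Figure D5:**
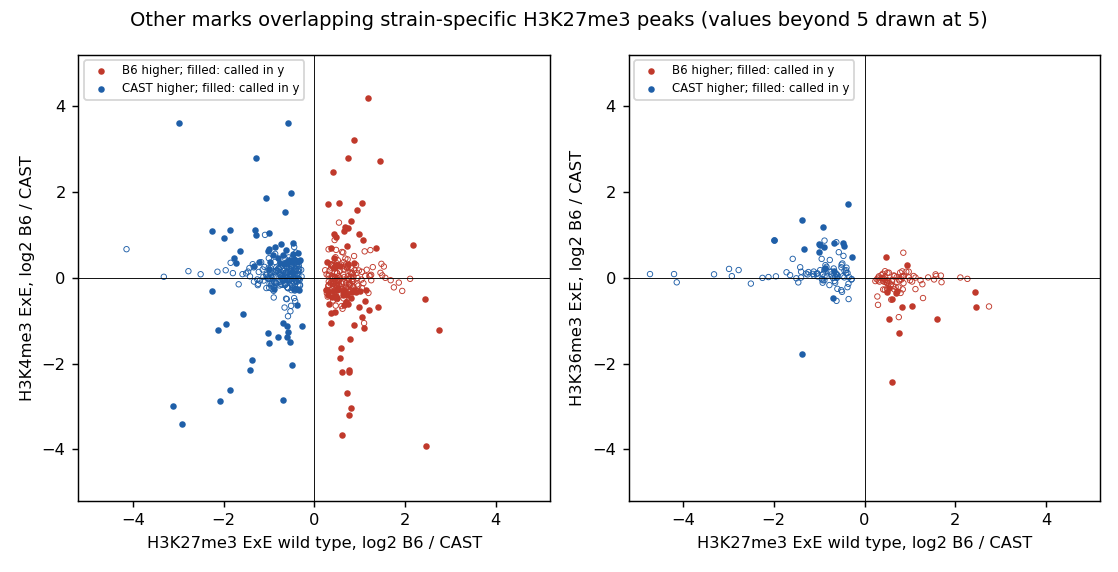
Log2 ratio of B6 to CAST for H3K27me3 (x axes) against H3K4me3 (left) and H3K36me3 (right) at strain-specific H3K27me3 peaks in ExE, with red for B6-high and blue for CAST-high H3K27me3 and filled points for differences of the other mark that passed. On the right, 29 of 33 filled points lie in the quadrants of opposite sign, and on the left 90 of 143.

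The reciprocal crosses also allowed an effect of the parent to be read at strain-specific peaks. The parent term of the joint fit passed at 18 of the 804 peaks, against 7.27% of all informative peaks, and at 35 with each library as a block. Without B6/CAST replicate 1 it passed at 3, without CAST/B6 replicate 1 at 5 and without B6/CAST replicate 2 at 8. The call asks for the same strain in both crosses, so it leaves out peaks where the parental effect outweighs that of the strain. Since a strain-specific peak has the same strain higher in both crosses, a parental effect there changes the size of the difference and not its direction. At Gm9762, for example, the B6 share was 62.3 and 55.9% where B6 was maternal and 70.3 and 68.5% where it was paternal. At Cd276 the exonic peak had B6 shares of 86.3 and 81.5% where B6 was maternal and 64.8 and 64.4% where it was paternal, with a paternal minus maternal log2 ratio of -0.74. At Azin2 the corresponding shares were 41.6 and 45.9% against 33.9 and 39.2% (-0.19).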

How the data were processed

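H3K27me3 of wild-type ExE was analysed in 2 libraries per cross, and the groups were taken from the labels. According to the methods, the authors trimmed reads with Trim Galore (0.4.4 in the submitters' notes), aligned them with Bowtie2 (2.3.2) to GRCm38 with B6 and CAST variants masked, split reads by variant, called peaks per cross with a hidden Markov model and merged them. For matDKO/CAST, reads assigned to 129 were added to the maternal allele. The deposited allelic tables hold raw read counts per peak and allele. The start and end columns were used as coordinates. At 25.9% of autosomal peaks, and at 45 of the 113 peaks examined by name, the peak's name gave a shorter interval, which in each case lay inside the start and end and shared 1 of them (median difference 1500 bp). The authors also deposited RPKM in 1 kb windows, made from all aligned reads and averaged here over each peak.

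Allele counts were compared with edgeR 4.0.16 (TMM factors, alleles unpaired, two-sided) in each cross, and in a joint fit with terms for cross, parent and strain, from which log2 ratios and SEs were taken. DESeq2 1.42.0 was an alternative. The alleles of a library come from the same pool, so the library is a true block, and the deviations of the 2 alleles correlated at 0.0978 in B6/CAST and 0.148 in CAST/B6. Replicate counts differed by more than sampling noise (chi-square per degree of freedom 1.29 and 1.52 in the 2 crosses). Other marks were read at the peak with the longest overlap. Genes came from GENCODE on GRCm38. Named peaks were, for each strain, the 5 with the most reads, the 5 with the largest ratio among peaks with at least 100 reads, and the 5 of these with the largest ratio at a protein-coding start site, and up to 3 genes per list. A peak took the name of genes starting in it, else overlapping it, else within 10000 bp, and a list gene was read at the peak within 2000 bp of its start. The members, lists and rules were chosen with earlier results of these data known. The p-values measure the spread between 2 pools per cross, and read intervals cover counting error only. Other tools were R 4.3.3, Python and pandas.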

Additional observations from a re-analysis of the deposited data

Results flagged for a closer look

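At 18 of the 804 strain-specific peaks the size of the strain difference differed between the reciprocal crosses, by the parent term of the joint fit (edgeR, adjusted p below 0.05). This term passed at 7.27% of all informative peaks, and the call leaves out peaks where the parental effect outweighs that of the strain. The 5 strain-specific peaks with the smallest p had paternal minus maternal log2 ratios of 0.35 at Gm9762, -0.32 at Cdyl2, -0.34 at Grik3, -0.33 at Gm25622 and 1.07 at 2700054A10Rik. At Cdyl2, which encodes a chromodomain protein, the B6 share was 37.7 and 41.4% in B6/CAST and 30.8 and 25.4% in CAST/B6. At Grik3, a kainate receptor gene, it was 44.4 and 42.6% against 31.4 and 31.8%. At 2700054A10Rik, with 211 reads, it was 4.4 and 13% against 30.2 and 26.5%, and the input was 2.67 times the autosomal median.

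Of 413 strain-specific peaks with an epiblast peak and all 4 ExE libraries on 1 side of 50%, 6 (1.45%) had all 4 epiblast libraries on the other side, against 56 of 1768 (3.17%) for peaks called neither strain-specific nor parental, and the difference between the tissues was not tested. Of these, the epiblast difference itself passed at Ccdc3 alone (log2 ratio 0.41 in ExE and -0.62 in epiblast, adjusted p 0.031). The others were the estrogen receptor gene Esr2 (0.33 and -0.42), Frat1 with Frat2 (0.50 and -0.53), Dact3 with Gng8 and Ptgir (-0.37 and 0.07), AC158605.1 (-0.74 and 0.56) and 4931440F15Rik (-1.56 and 0.68).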

How the results depend on the processing

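The number of strain-specific peaks was 804, and 1073 with each library as a replicate block. It was 803 with DESeq2 size factors, 800 with library totals (which moved the median ratio of all peaks from 0.00 to 0.02), 801 without the read minimum and 770 with the input limited to 0.7 to 1.5, an alternative chosen after seeing the data. It moved to 93 with the Wald test of DESeq2, to 396 at an adjusted p below 0.01 and to 480 among peaks whose name and coordinates agree, which leaves out 314 of the 804, and to 217 to 563 when a library was left out, lowest without B6/CAST replicate 1, then 335 without B6/CAST replicate 2 and 379 without CAST/B6 replicate 1. The lone library left in a cross was assumed to vary like the other cross. The joint strain term passed at 4325 peaks, at 1338 by DESeq2 and at 2300 to 3381 with a library left out. The parent term passed at 18 strain-specific peaks, at 35 with the block and at 3 to 13 with a library left out. The same-direction count in matDKO/CAST was 132, 242 with the block, 217 in a fit over all 6 libraries and 28 to 147 with a library left out. H3K36me3 passed at 33 peaks and at 16 with the stricter overlap. Of 113 named peaks, 92 lost the strain-specific call by DESeq2, 70 without B6/CAST replicate 1, 55 without B6/CAST replicate 2, 38 without CAST/B6 replicate 1 and 38 at an adjusted p below 0.01. None of those with a value changed direction in the settings run for the strain-specific count, of which the agreement of names covered 68 and the input limit 89. The cause of these changes was not tested.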
